A study of Mus musculus with 2 samples.

Results

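Dendritic cells present antigen to T cells, and a small number of them were captured among the cells of a healing skull defect in mice. The cells described here were taken with 2 gates on unique molecular identifiers (UMIs, each standing for 1 captured transcript), and the gates were kept apart throughout. The type 1 gate asked for at least 3 UMIs of Xcr1 and Clec9a together, and the migratory gate asked for at least 3 UMIs of Ccr7 and at least 3 of Fscn1. Both gates asked for at least 20 UMIs of the MHC class II genes H2-Ab1, H2-Eb1 and H2-Aa together, for at most 3 UMIs of Cd79a and Cd79b, for at most 1 UMI of Cd3d, Cd3e and Cd3g, and for less than 3% of UMIs from S100a8 and S100a9. Of 17129 cells within the limits on depth and mitochondrial share, 33 fell in the type 1 gate and 36 in the migratory gate, together 69, and no cell fell in both.

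Each condition was 1 single-cell library pooled from several male C57BL/6 mice (C57BL/6J in the study's text). GA treated mice received daily intraperitoneal injections of 100 µL gambogic amide, a small molecule that activates the nerve growth factor receptor TrkA, at 1.2 mg/kg in 10% DMSO by the sample labels. The study's text states another daily dose, and which of them these mice received was not settled here. Control mice received the same volume of 10% DMSO. In both groups dosing began, by the labels, 24 h before a calvarial (skull) defect was made and lasted 1 week, and the tissue was taken 7 days after the defect as a piece of 3 mm on each edge. The GA library gave 13 type 1 and 11 migratory cells of 9036, and the control library gave 20 and 25 of 8093. With 1 library per condition no difference between GA and control was tested, no p-value was formed, and the 95% intervals below cover counting error only. They do not cover differences between mice or between captures.

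The deposited matrices held 182949385 UMIs in 9322 barcodes for GA and 214993030 UMIs in 8718 barcodes for control. All cells within the limits had a median of 11267 UMIs in the GA library and 17499 in the control library. Type 1 cells were deeper than that in both libraries, with a median of 27014 UMIs (14207 to 61892) in GA and 28688.5 (3601 to 50037) in control. Migratory cells had a median of 20466 UMIs (13578 to 25002) in GA and 15012 (5659 to 66010) in control. The libraries shared 23 barcodes, none of which belonged to a gated cell. The summed UMIs of each gate were 406638 and 542600 for type 1 cells and 208327 and 513335 for migratory cells, GA before control. These sums are the denominators of every level given as CPM, a gene's UMIs per 1000000 UMIs of the gate.

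Type 1 conventional dendritic cells are known for taking up dead cells and for presenting their antigens on MHC class I to CD8 T cells, a route called cross-presentation. They depend on the transcription factors Irf8 and Batf3, sense dead cells with the lectin Clec9a, and answer the T cell chemokine Xcl1 through the receptor Xcr1. Migratory dendritic cells are a state that any conventional dendritic cell can enter: on maturation the cell raises Ccr7, the receptor that guides it along Ccl19 and Ccl21 to lymph vessels and lymph nodes, and Fscn1, the actin-bundling protein fascin of its dendrites. NF-kB proteins, among them Relb and Rel, are known to drive that maturation.

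The gate genes lie on different chromosomes of the mouse genome build GRCm38. By the GENCODE annotation, Xcr1 is at chr9:123852315-123862029 on the minus strand, Clec9a at chr6:129408862-129424763 on the plus strand, Ccr7 at chr11:99144196-99155077 on the minus strand and Fscn1 at chr5:142960343-142973185 on the plus strand. All of them are protein-coding.

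The cells were selected on the measured UMIs of the gate genes, so the values of these genes are a description. In the 13 GA type 1 cells Xcr1 ranged from 0 to 50 UMIs with a median of 3, and Clec9a from 2 to 18 with a median of 5. In the 20 control type 1 cells Xcr1 ranged from 0 to 22 with a median of 5, and Clec9a from 0 to 17 with a median of 8. Both genes were found together in 8 of 13 GA cells and in 17 of 20 control cells, so 5 GA cells passed on Clec9a alone. In the 11 GA migratory cells Ccr7 ranged from 9 to 60 UMIs (median 24) and Fscn1 from 3 to 55 (median 33). In the 25 control migratory cells Ccr7 ranged from 6 to 78 (median 27) and Fscn1 from 3 to 86 (median 18). No migratory cell held a UMI of Xcr1 or of Clec9a, which leaves an upper limit of 17.7 CPM for each gene in GA and 7.19 in control.

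The label was checked against Zbtb46, a transcription factor of conventional dendritic cells that the gates did not use. Its level was 140 CPM in GA type 1 cells (106 to 182) and 140 in control type 1 cells (110 to 175). It was 134 in GA migratory cells (89.3 to 194) and 115 in control migratory cells (87.5 to 148). In C1q cells, a comparison group of 151 GA and 205 control cells with at least 20 UMIs of C1qa, C1qb and C1qc, it was 5.40 and 7.06. A Zbtb46 UMI was found in 7 of 13 and 17 of 20 type 1 cells and in 9 of 11 and 22 of 25 migratory cells, against 7.95% of GA and 9.76% of control C1q cells, whose median depths were 19426 and 20726 UMIs. The GA type 1 level rested partly on 1 cell with 25 Zbtb46 UMIs, while no other GA type 1 cell held over 9. Flt3, the growth factor receptor that dendritic cells need, was found in 13 of 13 and 19 of 20 type 1 cells and in 11 of 11 and 22 of 25 migratory cells, against 1.99% and 6.83% of the C1q cells. Both genes stood above the C1q cells in both gates of both libraries. In Cd209a cells, 40 GA and 112 control cells with at least 3 Cd209a UMIs, Zbtb46 was found in 55.0% and 54.5% and Flt3 in 57.5% and 70.5%. With cells reduced at random to 5000 UMIs, Zbtb46 was found in 30.8% and 36.8% of type 1 and 22.5% and 33.0% of Cd209a cells. Zbtb46 thus does not set the type 1 gate apart from these other cells.

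**Figure D1:**
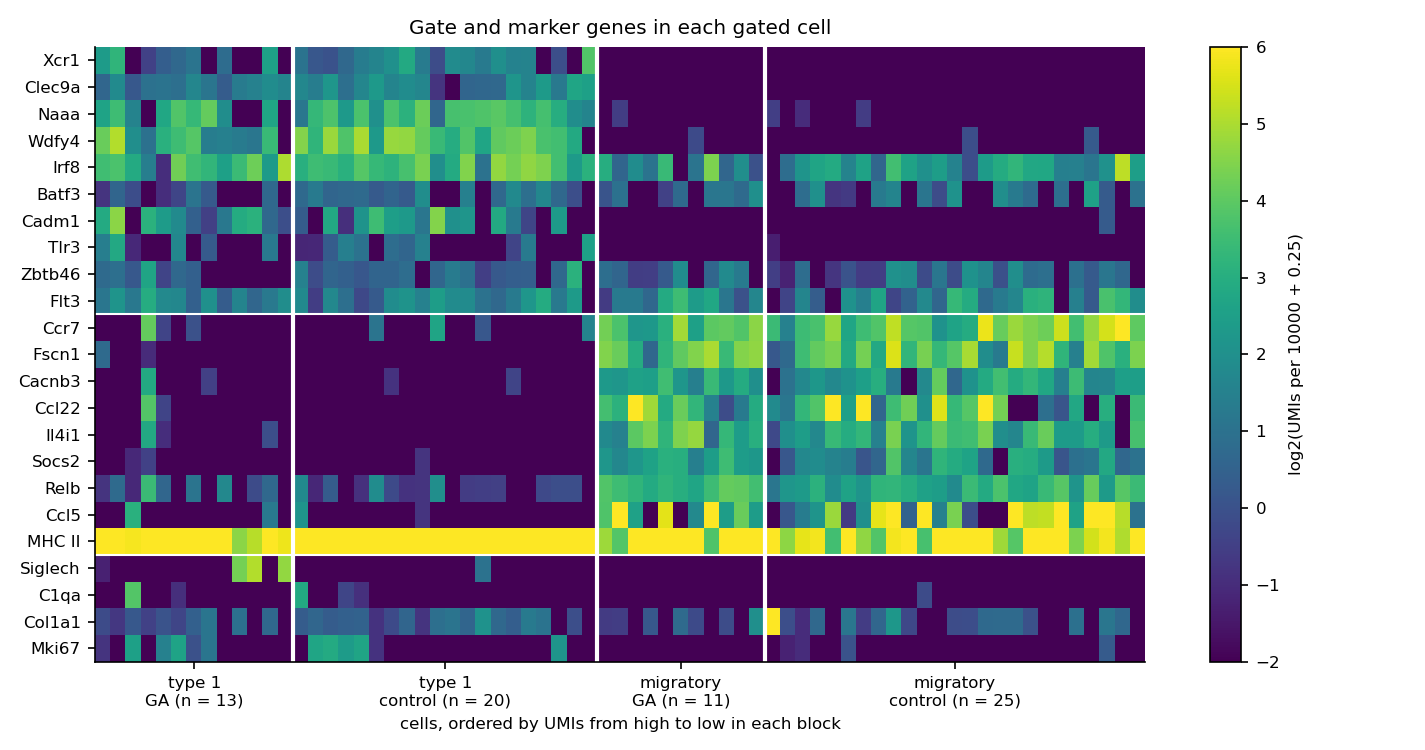
Each column is 1 of the 69 gated cells, ordered by UMIs within 4 blocks (type 1 GA, type 1 control, migratory GA, migratory control), each row is a gene or the sum of the 3 MHC class II gate genes, and color is UMIs scaled to the cell's depth, on a log2 scale. Type 1 genes fill the left blocks and Ccr7, Fscn1 and Relb the right blocks, 3 GA type 1 cells show Siglech, and 1 control migratory cell shows Col1a1.

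Not every cell of the type 1 gate carried the markers of its name. GA type 1 cells 10, 11 and 13 (numbered from the deepest cell down) held 4 Clec9a UMIs each, no Xcr1 and no Naaa, but 35, 52 and 37 UMIs of Siglech, the defining lectin of plasmacytoid dendritic cells. Their MHC class II sums were 43, 54 and 79 UMIs, against a median of 504 for the GA gate. These 3 cells go against the type 1 name and are called cells of the type 1 gate. They are the GA cells with Siglech below, and GA cell 1, with 1 Siglech UMI, is not counted with them. GA cell 3 held 63 C1qa UMIs, 368 UMIs of 12 macrophage markers and no Xcr1, and GA cell 1 held 185 UMIs of endothelial markers and 158 of macrophage markers beside 31 of Xcr1. In control, cell 1 held 343 macrophage-marker UMIs and cell 6 held 650 UMIs of erythroid markers.

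Counted with a mark of 100 UMIs on any of the macrophage, monocyte, plasmacytoid, mesenchymal, endothelial or erythroid lists, a choice made after seeing the data, 6 of 13 GA and 3 of 20 control type 1 cells carried another type's transcripts. They held 51.4% and 21.8% of the gate's UMIs. In the migratory gate the count was 0 of 11 in GA and 3 of 25 in control, with 26.1% of the control gate's UMIs. One of those was control migratory cell 1, the deepest of its gate at 66010 UMIs, which held 1406 UMIs of Col1a1, the main collagen of bone, and 4608 UMIs of the 10 mesenchymal markers. The mark does not separate cell types: GA cell 2, with 50 Xcr1 and 18 Clec9a UMIs, and GA cell 1, with 31 and 8, are among the marked cells and held the most Xcr1 UMIs of the GA gate. Values without the marked cells are given below beside several genes and lists, and for type 1 markers also without the 3 GA cells with Siglech alone.

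Lists of other cell types differed between libraries in the same gate. All 8 plasmacytoid markers had UMIs in GA type 1 cells, with a sum of 1564 CPM and Tcf4 the most abundant at 676, while 5 of 8 had UMIs in control, with a sum of 94.0 and Ly6d at 0. The 12 macrophage markers summed to 1972 CPM in GA and 1725 in control type 1 cells, led by Lyz2 at 937 and 1268, and Mrc1 was at 0 in control. In migratory cells the macrophage sum was 52.8 in GA, with 8 of 12 markers at 0, and 664 in control. Neutrophil markers summed to 539 against 158 CPM in type 1 cells and to 442 against 146 in migratory cells, led by S100a9. Neutrophil genes made up a larger part of the whole GA library too, where S100a8 and S100a9 took 7.49% of UMIs against 2.05% in control. The part that cells of other types and free RNA had in the differences below was not tested.

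Most cells of the type 1 gate carried the genes the type is known for. Irf8 was found in all 33 cells, from 1 to 72 UMIs (median 29) in GA and from 3 to 64 (median 36.5) in control. Irf8 is also high in plasmacytoid cells and does not tell the types apart, and the 3 GA cells with Siglech held 19, 29 and 46 UMIs of it. Without them it was found in 10 of 10 GA cells (1 to 72, median 25.5). Wdfy4, a protein needed for cross-presentation, ranged from 0 to 186 UMIs (median 15) in GA and from 0 to 113 (median 34.5) in control. Naaa, an acid amidase of lysosomes, was found in all 20 control cells (1 to 56 UMIs, median 25) and in 9 of 13 GA cells (0 to 61, median 12), and the 4 GA cells without it included the 3 with Siglech. Each of the 20 listed type 1 markers had UMIs in both libraries, and their sum was 6960 CPM in GA and 8249 in control. In GA 27.2% of that sum came from the 1 cell that held most.

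Of the individual type 1 markers, Cadm1, an adhesion molecule that engages activated T cells, was at 686 CPM in GA and 437 in control, and at 379 and 459 without the marked cells, since marked GA cell 2 held 133 of its UMIs. Without the 3 cells with Siglech alone it was at 702 in GA. Itgae, the CD103 integrin chain of tissue type 1 cells, was at 138 and 149, at 70.8 and 155 without the marked cells, at 156 in GA without the Siglech cells alone, and had no UMI in migratory cells. Tlr3, a sensor of double-stranded RNA, was at 172 and 82.9, and at 80.9 and 82.5 without the marked cells, of which GA cells 1 and 2 held 15 and 38 UMIs. In the 10 GA cells without Siglech it was at 195. Rab43 and Rab7b, proteins of membrane traffic, were at 630 and 192 in GA and at 704 and 365 in control. These genes were spread over the gate in control, where no cell held over 9.32% of the summed marker UMIs.

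UMIs of division genes were found in part of the type 1 cells. A UMI of Mki67 or Top2a was found in 7 of 13 GA and 7 of 20 control type 1 cells, and in 1 of 11 and 5 of 25 migratory cells. With every cell reduced at random to 5000 UMIs, and 1 shallower control type 1 cell dropped, the counts were 5 of 13 and 6 of 19 against 0 of 11 and 2 of 25, where 0 of 11 allows a share of up to 28.5%. Control type 1 cells 2 to 5 held 18 to 29 Mki67 UMIs each, while no migratory cell held over 2. Among C1q cells the unthinned shares were 27.8% in GA and 36.1% in control. A single UMI was enough for these counts and no background share was measured, so they do not give the share of dividing cells.

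A few cells of the type 1 gate carried maturation genes. GA cell 4 held 70 UMIs of Ccr7, 59 of Ccl22, 28 of Il4i1, 44 of Relb and 94 of Il12b, which encodes the p40 chain of interleukin 12, with only 1 of Fscn1. It supplied all 94 Il12b UMIs of the GA gate and 56.8% of the gate's UMIs of migratory markers. Control cell 10 held 19 Ccr7 UMIs and control cell 6 held 6, both with Fscn1 at 0. Fscn1 alone kept these 3 cells out of the migratory gate.

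Migratory cells carried their program in nearly every cell. Ccl22, a chemokine that draws T cells bearing Ccr4, was found in 11 of 11 GA cells (1 to 268 UMIs, median 15) and in 21 of 25 control cells (0 to 355, median 14). Il4i1, an enzyme that oxidizes phenylalanine and tryptophan, was found in 11 of 11 (2 to 47, median 15) and 24 of 25 (0 to 37, median 14). Relb, an NF-kB subunit, was found in all 36 cells, at 1075 CPM in GA (939 to 1226) and 637 in control (570 to 710). Of the 25 listed migratory markers 24 had UMIs in GA and 25 in control, and no cell held over 13.5% of their sum.

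Several chemokines and cytokines were concentrated in few migratory cells. Ccl5, which draws T cells and monocytes, ranged from 0 to 307 UMIs (median 13) in GA and from 0 to 627 (median 12) in control, where cell 9 held 627 of 1505. Ccl17, the second ligand of Ccr4, was found in 4 of 11 GA cells and 13 of 25 control cells, and control cells 5 and 7 held 293 and 196 of the 655 UMIs. Il12b was found in 3 of 11 and 8 of 25 cells, and control cell 4 held 78 of the 125 UMIs. Ccl17 was at 0 in every type 1 cell, while in migratory cells its level rested on few cells.

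Genes of the type 1 program were almost empty in migratory cells, apart from the factors shared by both. Wdfy4 had 1 UMI in the 11 GA cells and 2 in the 25 control cells, and Naaa had 1 and 5. Itgae, Snx22, Gcsam and Cxcr3 had none in either library. Irf8 was at 480 CPM in GA and 442 in control migratory cells, against 58.7 and 153 in Cd209a cells, the comparison group of 40 GA and 112 control cells with at least 3 Cd209a UMIs. Batf3 was at 110 and 115 in migratory cells against 43.8 and 31.6 in Cd209a cells. From which kind of dendritic cell the migratory cells came was not tested.

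Levels were compared between the gates within each library over the 1002 genes with at least 100 UMIs over both gates in each library. Of these 109 genes (10.9%) were at least 2-fold higher in migratory cells in both libraries and 119 (11.9%) at least 2-fold lower, while 5 were 2-fold apart in opposite directions. The gates were set on this contrast, so the counts describe the cells chosen and are no test. In the listed migratory markers 15 of 15 genes in the comparison were higher in both libraries. In the listed type 1 markers 8 of 9 were lower.

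Fabp5, a fatty acid carrier, led the genes higher in migratory cells. Its level was 10277 CPM in GA migratory against 46.7 in GA type 1 cells (log2 ratio 7.78, 7.13 to 8.52), and 5772 against 9.21 in control (9.29, 8.07 to 10.91). It was found in 11 of 11 and 24 of 25 migratory cells and in 3 of 13 and 3 of 20 type 1 cells. Mreg, the melanosome transport protein melanoregulin, was at 936 CPM against no UMI in GA, a log2 ratio of at least 6.99 against a floor of 3 counts, and at 614 against 3.69 in control. Socs2, a brake on cytokine signalling, was at 557 against 7.38 in GA and at 304 against 1.84 in control (log2 ratios 6.24 and 7.37).

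Ccl5 was at 3154 CPM in GA migratory cells against 95.9 in GA type 1 cells and at 2932 against 40.5 in control. Cd63, a tetraspanin of endosomes, was at 821 against 41.8 and at 1157 against 40.5. The calcium-dependent membrane binder Anxa3 and the ER membrane protein Tmcc3 had log2 ratios of 5.92 and 5.18 in GA and 8.06 and 7.17 in control. Tmem176a, a membrane protein of immature antigen-presenting cells, and Glipr2 had log2 ratios of 4.18 and 4.09 in GA and 6.56 and 4.60 in control. Syn3 and Stxbp6, genes of vesicle release and fusion, had 104 and 157 UMIs in GA migratory cells with 1 and 2 in GA type 1 cells, and none in control type 1 cells. With the gate gene Fscn1, these were the 12 genes whose ratio in the library nearer 0 was highest. Without the marked cells all 12 were still at least 2-fold higher in both libraries.

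On the other side stood Wdfy4, at 4.80 CPM in GA migratory cells against 1139 in GA type 1 cells (log2 ratio −7.89, −13.20 to −5.40) and at 3.90 against 1677 in control (−8.75, −11.80 to −6.89). Cadm1 had no UMI in GA migratory cells and 1 in control, and the zinc finger gene Zfp710 had none and 4. Ccr2, the receptor that brings blood precursors into tissue, had 1 UMI in GA migratory cells and none in control migratory cells, against 271 and 230 CPM in type 1 cells. Arhgap15, which turns Rac off, and Slc9a9, a sodium-proton exchanger of endosomes, had log2 ratios of −6.76 and −6.75 in GA and −6.92 and −6.73 in control. The ETS factor Fli1, the lysosomal thioesterase Ppt1 and the interferon-inducible Ifi205 had log2 ratios of −5.22, −4.47 and −5.95 in GA and −5.83, −4.73 and −4.60 in control. The histone gene Hist1h2ap had no UMI in GA migratory cells and 4 in control, against 310 and 612 CPM in type 1 cells. Hist1h2ap and Ifi205 have near-identical relatives in the genome, so their counts are uncertain. With Xcr1 and Naaa these made 12 genes, and without the marked cells all 12 were still at least 2-fold lower in migratory cells in both libraries.

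**Figure D2:**
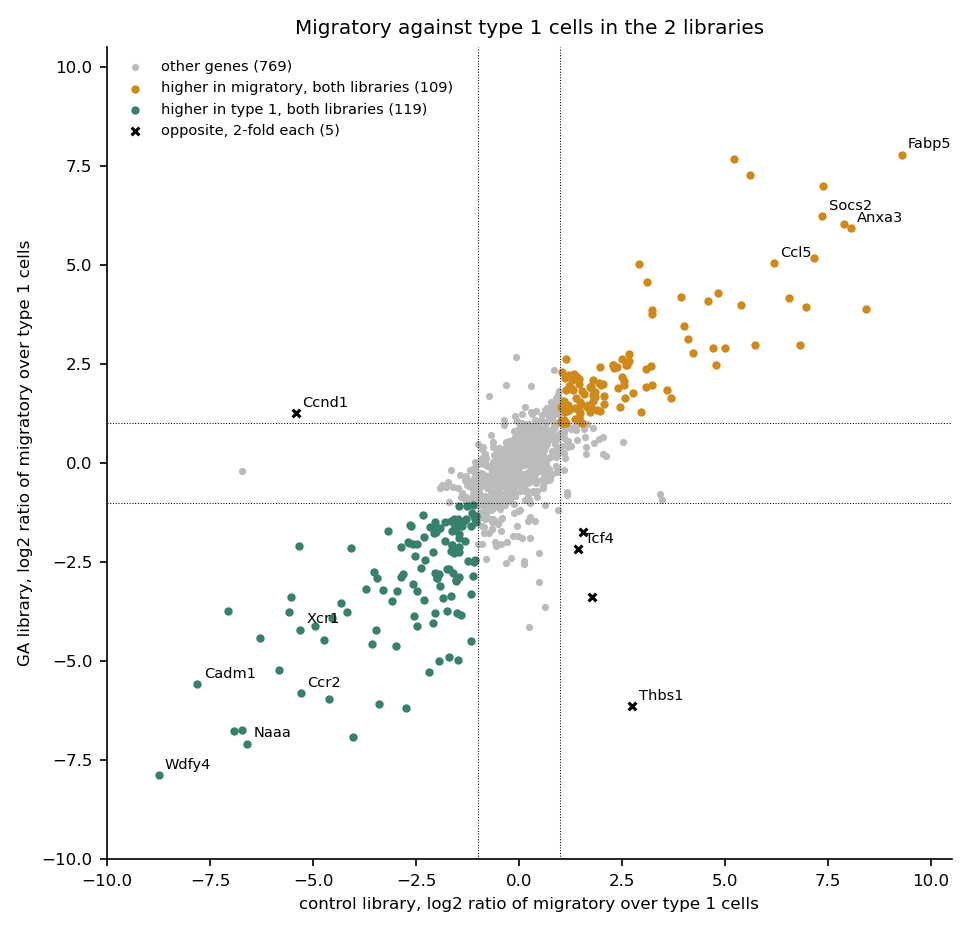
Each point is 1 of 1002 genes, with the log2 ratio of migratory over type 1 cells in the control library on the x axis and in the GA library on the y axis, and dotted lines mark 2-fold. Genes with no UMI in a gate are drawn at the ratio against a floor of 3 counts. The 109 genes in the upper right and the 119 in the lower left passed 2-fold in both libraries, and 5 crosses passed it in opposite directions.

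The gene lists were read against all genes with at least 20 UMIs over both gates of a library. Of these, 12.5% were at least 2-fold higher and 30.5% at least 2-fold lower in migratory cells in GA, and 16.9% and 18.1% in control. Of 18 NF-kB subunits and feedback genes, 10 were at least 2-fold higher in migratory cells in each library, with medians of 1.07 in GA and 1.09 in control on the log2 scale, where all genes had medians of −0.33 and −0.08. Relb was 2.56 and 2.68 higher, Traf3, which holds the Relb pathway back, 1.41 and 1.74, and Birc2, a ubiquitin ligase of the same pathway, 3.42 and 4.42. Rel was at 1464 against 706 CPM in GA and at 1258 against 621 in control. The feedback inhibitor Tnfaip3 was lower in GA migratory cells, at −1.65 (−2.94 to −0.56), and higher in control, at 0.68.

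The 22 cell cycle genes summed to 254 CPM in GA migratory cells against 2619 in GA type 1 cells, and to 273 against 2488 in control. They reached 20 UMIs mostly through the type 1 gate, and only 2 of the 22 did so within migratory cells. Costimulation genes had medians of 1.18 and 0.43. Among them Cd40, which receives help from T cells, was 2.05 and 2.56 higher, while Cd86, the ligand of Cd28, was at 811 against 698 CPM in GA and at 427 against 757 in control. Tnfrsf9 and Tnfrsf4, TNF family receptors, were at 187 and 130 CPM in GA migratory cells and at 304 and 89.6 in control, and at no more than 7.38 in type 1 cells. The survival gene Bcl2a1b was at 1810 and 1358 CPM in migratory cells against 295 and 241, with the reservation that the Bcl2a1 copies are near-identical. Cytoskeleton genes had medians of 0.79 and 0.39, and beside the gate gene Fscn1 they included the membrane protease Mmp25 (4.32 and 3.80), the actin regulator Marcksl1 (2.46 and 2.62) and the actin binder Lsp1 (1.82 and 0.98).

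MHC class II genes were lower as a group in control migratory cells (median −1.40, 9 of 14 at least 2-fold lower) and near the median of all genes in GA (−0.34, 5 of 14). The class II exchange factors H2-DMa and H2-DMb1 were lower in both libraries, with log2 ratios of −1.59 and −2.74 in GA and −2.63 and −3.53 in control. March1, the ubiquitin ligase that removes class II from the surface, was at 111 and 173 CPM in type 1 cells and had no UMI in migratory cells. Ifi30, the thiol reductase of antigen processing, went the other way, at 2318 against 583 CPM in GA and 1744 against 638 in control. Both gates required class II UMIs, so these levels rest on cells chosen for them. Without the 3 gate genes the medians were −0.60 and −1.71, with 5 of 11 and 6 of 11 at least 2-fold lower. In GA, Cd74, H2-Ab1 and H2-Eb1 were at 12029, 4090 and 5362 CPM in migratory cells, against 11044, 5683 and 5228 in type 1 cells. Without the marked cells the type 1 levels were 16472, 8453 and 8317, and the migratory levels were unchanged.

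The pattern receptor list holds the gate gene Clec9a, which migratory cells lacked. Without it the medians in migratory over type 1 cells were −2.37 in GA and −0.71 in control, over 6 and 8 measured genes that in GA mostly reached 20 UMIs through the type 1 gate. Unc93b1, the chaperone of endosomal Toll-like receptors, was at −2.28 and −1.58. Lysosome genes gave medians of −1.74 in GA and 0.40 in control, so their direction differed between the libraries. The medians were −0.91 and 0.55 without the marked cells. Chemokine genes had a median of −0.15 in GA that moved to 2.86 without the marked cells, and 2.38 in control. Chemokine receptors, without the gate genes Ccr7 and Xcr1, had medians of −1.62 in GA and −0.02 in control. The interferon response list had a median of −0.51 in GA over 5 measured genes, 2 at least 2-fold higher and 2 lower, and 0.37 in control over 8, and without the marked cells it was 1.38 and 0.92. Isg15 was at 254 CPM in GA migratory cells against 29.5 in type 1 cells, while Bst2, a tether of budding viruses that plasmacytoid cells also carry, was at 216 against 448. Without the marked cells the direction of Bst2 turned, at 216 against 152.

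**Figure D3:**
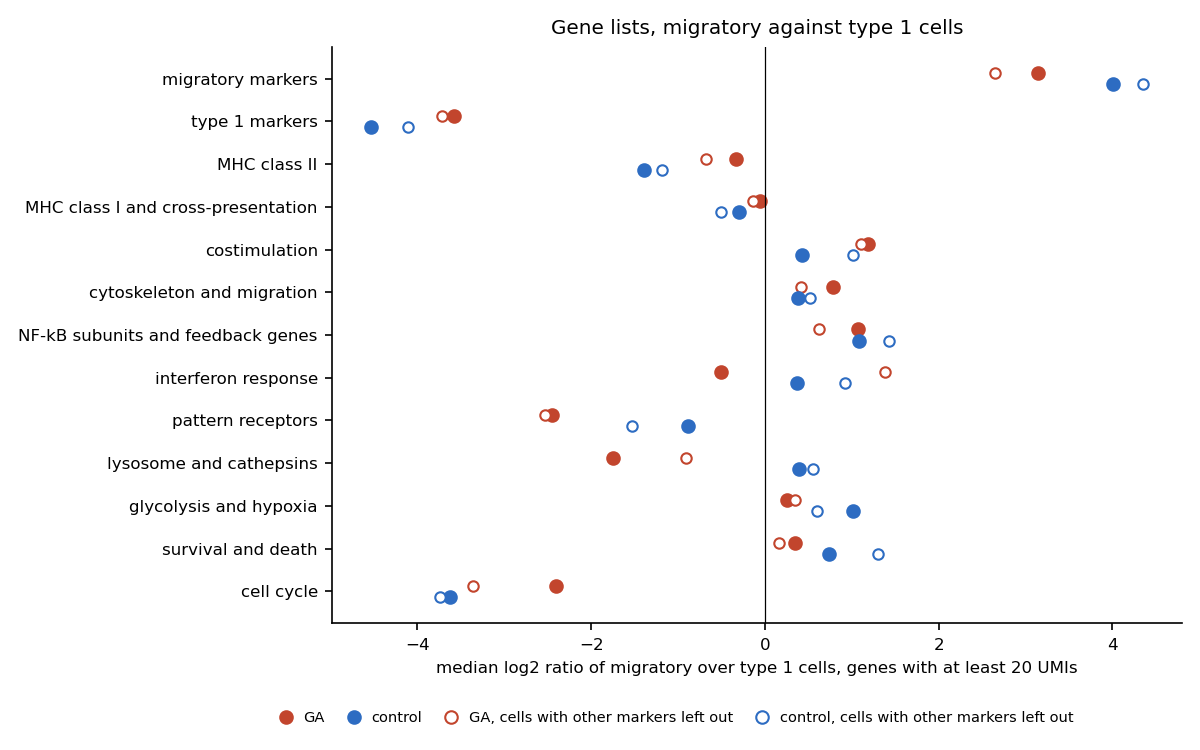
Points give the median log2 ratio of migratory over type 1 cells for 13 gene lists (genes with at least 20 UMIs), filled for all gated cells and open without the cells marked by other types' transcripts, in red for GA and blue for control. Migratory markers, costimulation and NF-kB genes lay above 0 in both libraries and type 1 markers, pattern receptors and cell cycle below (the pattern receptors with the gate gene Clec9a), while lysosome genes lay on different sides.

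Migratory genes were searched for known DNA motifs in RefSeq promoter windows of build GRCm38.p6, from 250 bases before to 50 after each start. GGG, any 2 bases and TTTCC, a form of the site that NF-kB binds, was searched on both strands and found for 6 of 89 genes higher in migratory cells (6.74%), for 2 of 93 genes higher in type 1 cells (2.15%) and for 1.89% of all 27025 genes with a window. Among the 789 genes compared between the gates that had a window, the share was 2.41%. The 6 genes were B2m, Rel, Tank, Tmem176a, Tmem176b and Traf3, and Tmem176a and Tmem176b are neighbors. A match is a description of letters and no evidence of binding, and 6 genes are few. The 6 genes were taken from those at least 2-fold higher in migratory cells in both libraries, so their direction is fixed by that choice. The stretches before the start of 3 of them, Rel, Traf3 and Tmem176a, are shown as examples, read 5′ to 3′ on the gene's strand, with the match in capitals.
Rel, chr11:23771001-23771110, minus strand: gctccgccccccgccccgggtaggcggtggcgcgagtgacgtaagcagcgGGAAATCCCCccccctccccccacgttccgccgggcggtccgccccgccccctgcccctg
Traf3, chr12:111166310-111166369, plus strand: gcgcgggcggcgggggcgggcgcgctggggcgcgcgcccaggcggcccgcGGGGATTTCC
Tmem176a, chr6:48841347-48841456, plus strand: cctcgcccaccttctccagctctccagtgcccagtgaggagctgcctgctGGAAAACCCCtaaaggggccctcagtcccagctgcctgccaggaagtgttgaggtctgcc

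The matches began 91, 10 and 86 bases before the start of Rel, Traf3 and Tmem176a. TTTC, any 4 bases and TGA, a composite form for AP-1 family factors such as Batf3 with Irf8, was found on either strand for 5.27% of all genes and 2.53% of the genes compared between the gates. It was found for 1 of 89 genes higher in migratory cells and for 1 of 93 genes higher in type 1 cells. That last gene was Xcr1, whose match began 127 bases before the start.
Xcr1, chr9:123862096-123862206, minus strand: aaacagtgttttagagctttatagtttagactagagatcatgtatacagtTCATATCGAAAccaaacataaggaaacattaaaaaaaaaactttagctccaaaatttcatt

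An IRF form, GAAA, any 2 bases and GAAA, was found for 6.74% of the genes higher in migratory cells and 4.30% of those higher in type 1 cells, against 3.99% of all genes and 5.32% of the genes compared between the gates. With GGAA in place of the first GAAA it was found for 5.62% and 4.30%, against 3.16% of all genes and 3.55% of the genes compared.

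Cd209a cells and C1q cells served as neighbors that met the same MHC class II minimum. Against Cd209a cells, Irf8 was higher in type 1 cells by 4.13 in GA and 3.00 in control on the log2 scale, Wdfy4 by 3.62 and 3.40 and Cadm1 by 4.47 and 4.81. Tbc1d8, a GTPase-activating protein gene, was at 652 and 577 CPM in type 1 cells against 56.6 and 69.4, and Trim35 at 293 and 422 against 29.9 and 27.2. Against C1q cells the highest genes of the type 1 gate after Xcr1 were Flt3, Ccser1, P2ry10 and the serotonin receptor Htr7. Htr7 was at 470 and 761 CPM in type 1 cells, against 8.52 and 10.9 in C1q cells.

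In migratory cells the highest genes against Cd209a cells were Ccl5, Cacnb3, Fscn1, Strip2, Socs2, Syn3, Ly75 and Eno3. Cacnb3, a calcium channel subunit, was at 586 and 417 CPM against 1.07 and 4.86, and Ly75, the endocytic receptor DEC-205, at 470 and 296 against 5.34 and 7.77. Against C1q cells Ccl22 was at 2237 and 1880 CPM against 2.56 and 4.96. The muscle-type enolase gene Eno3 was at 427 and 312 against 14.9 and 4.86 in Cd209a cells. The genes were picked by the lower of their 2 library ratios, so being higher in both libraries follows from that choice.

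Migratory cells differed among themselves in MHC class II, which the gate used, and in chemokines such as Ccl5. Class II sums ranged from 21 to 734 UMIs (median 272) in GA and from 20 to 681 (median 105) in control. At 100 UMIs, a mark set after seeing the data, the 4 GA cells below held Ccl5 at 6499 CPM (5943 to 7093) against 1182 (1004 to 1384) in the 7 above, and the 12 control cells below held 4134 (3846 to 4437) against 2254 (2095 to 2423) in the 13 above. These levels rest partly on single cells. GA cell 8, below the mark, held 307 Ccl5 UMIs, and control cell 9, above it, held 627. Across cells the Spearman correlation of Ccl5 with class II, both divided by the UMIs of the cell, was −0.68 over 11 GA cells and −0.36 over 25 control cells. With the UMIs of the cell itself Ccl5 had correlations of 0.12 in GA and −0.37 in control, so in control depth moved with it as much as class II did. Both values of a cell share its depth, the cells of a library share a capture, and no p was formed.

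Il4i1 was higher with class II in GA, at 350 CPM in the low and 1602 in the high GA cells and at 659 and 713 in control (Spearman correlations 0.82 and 0.46). The counting intervals of the split were apart in GA (230 to 509 and 1393 to 1834) and overlapped in control (547 to 787 and 624 to 810). Cd86 was at 479 and 1007 in GA and at 373 and 457 in control, where its intervals overlapped too (290 to 472 and 387 to 536). Irf8 had the opposite order by this split, at 725 and 336 in GA and 621 and 341 in control, but its correlations with class II were −0.16 and −0.09. Ccl22 went in opposite directions by this split, at 829 and 3067 in GA and 3129 and 1176 in control, while its correlations with class II were 0.35 and 0.22. Control cells 5 and 7, both with low class II, held 355 and 171 of that gate's 965 Ccl22 UMIs. The marked control cells sat on both sides, cells 1 and 3 above and cell 5 below.

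**Figure D4:**
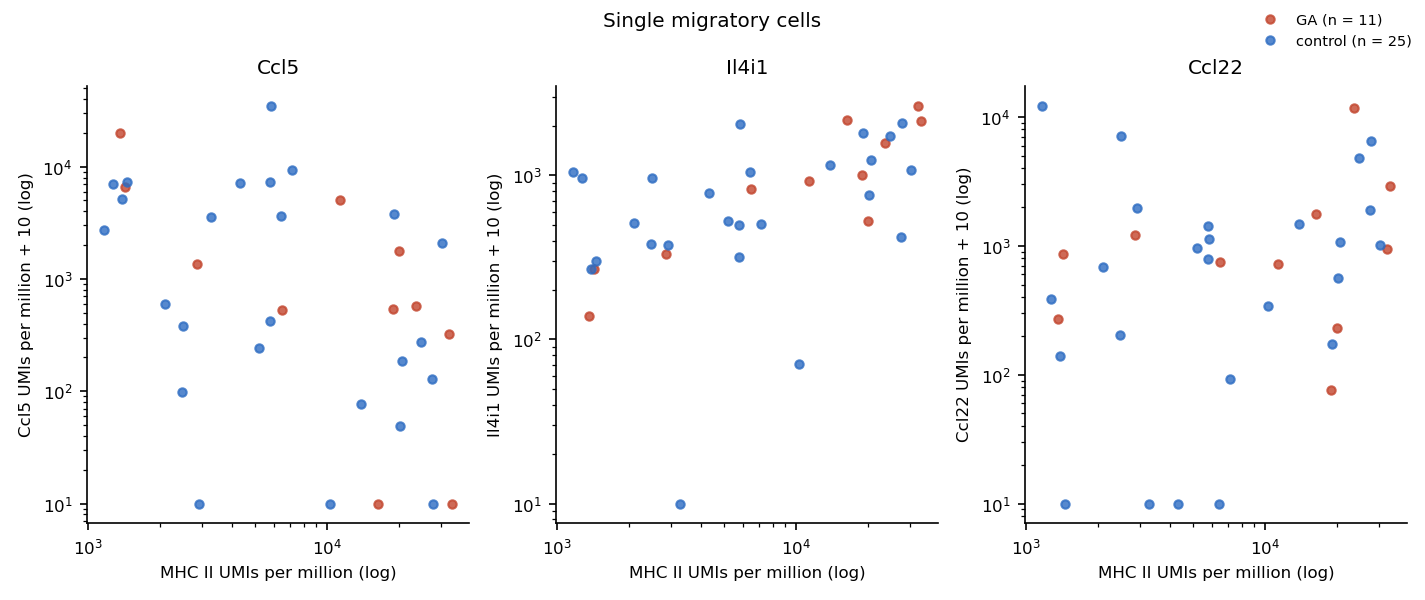
Each point is 1 migratory cell, red for GA (n = 11) and blue for control (n = 25), with UMIs per 1000000 UMIs of the cell on both axes, MHC class II on a log x axis and Ccl5, Il4i1 and Ccl22, each plus 10, on log y axes. Correlations with class II were −0.68 and −0.36 for Ccl5 and 0.82 and 0.46 for Il4i1, GA before control, with wide scatter, and the correlations of Ccl22 were 0.35 and 0.22.

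Both gates held a smaller share of the GA library. Type 1 cells were 0.144% of GA cells (0.0766 to 0.246, exact Clopper-Pearson) and 0.247% of control cells (0.151 to 0.381), a ratio of 0.582 (0.290 to 1.17). Migratory cells were 0.122% (0.0608 to 0.218) and 0.309% (0.20 to 0.456), a ratio of 0.394 (0.194 to 0.80). The interval of the type 1 ratio held 1 and that of the migratory ratio did not, on counting error alone.

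The GA library held fewer cells with S100a8 and S100a9 under 3% of UMIs, and the ratios were computed over other denominators. Among those cells, 4254 in GA and 6058 in control, the ratio was 0.926 (0.461 to 1.86) for type 1 and 0.627 (0.309 to 1.27) for migratory cells. Among cells with class II and the same exclusions, 348 and 574, it was 1.07 (0.540 to 2.13) and 0.726 (0.362 to 1.46). By the same denominator Cd209a cells had a ratio of 0.589 (0.421 to 0.824) and C1q cells 1.21 (1.03 to 1.43). Neither gate differed beyond counting error among class II cells. Migratory cells were 45.8% (25.6 to 67.2) of the gated cells in GA and 55.6% (40.0 to 70.4) in control.

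The GA counts of the type 1 gate rested partly on the marked cells. Without them 7 GA and 17 control cells remained, a ratio of 0.369 (0.153 to 0.889) among all cells. That ratio also leaves out marked GA cells 1 and 2, which held 31 and 50 Xcr1 UMIs. Leaving out only cells with at least 3 Siglech UMIs took away 3 GA cells and 1 control cell. The ratio then stayed within the main interval of 0.290 to 1.17. With 5 UMIs asked of Xcr1 and Clec9a together it was 8 against 18 (0.398, 0.173 to 0.915).

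In type 1 cells 119 of 1651 genes with at least 100 UMIs (7.21%) were at least 2-fold apart between GA and control, 93 of them higher and 26 lower in GA. In 60 of the 119 a single cell held over 25% of the UMIs. The type 1 regulator Batf3 was among the lower genes, at 59.0 CPM in GA (37.8 to 87.8) against 146 in control (115 to 181), a log2 ratio of −1.30 (−2.03 to −0.63). It was found in 8 of 13 and 16 of 20 cells, at 0 to 7 UMIs per GA cell and 0 to 11 per control cell, so the cells overlapped. The 3 GA cells with Siglech held none of it. Without them Batf3 was found in 8 of 10 GA cells, at 66.8 CPM against 146 in the whole control gate. The ratio was −1.31 without the marked cells.

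Other genes lower in GA type 1 cells were Plet1 (−1.87), Btbd1 (−1.78), the lysosomal membrane gene Tm6sf1 (−1.42), Arid5b (−1.34), the dendritic cell regulator Zfp366 (−1.26), Sept3 (−1.25) and the endocytic adaptor Dab2 (−1.24). Without the marked cells Plet1 was at −0.57, Arid5b at −2.78 and the other genes between −1.06 and −1.62. Tm6sf1, for example, had 40 UMIs in 8 GA cells and 143 in 16 control cells. Irf8 and Wdfy4, also of the type 1 program, were at −0.25 (−0.43 to −0.07) and −0.56 (−0.72 to −0.40), and at −0.81 and −1.26 without the marked cells. Marked GA cells 1 and 2 held 111 and 186 UMIs of Wdfy4, and in the 10 GA cells without Siglech it was at 1270 CPM, against 1677 in the whole control gate. Naaa was at −0.54.

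The genes higher in GA type 1 cells were S100a9 (2.16), the neutrophil calcium binder, then Tcf12 (1.89), the TGF-beta receptor Tgfbr1 (1.87), Fryl (1.71), the TGF-beta pathway inhibitor Smad7 (1.64), Bcl11a (1.59), the polyamine enzyme Odc1 (1.48) and Fyb (1.45). S100a9 was found in 13 of 13 GA and 12 of 20 control cells at 231 and 51.6 CPM, while the neutrophil markers as a whole stood at 539 and 158 as given above. Without the marked cells Tcf12, Tgfbr1, Fryl and Smad7 were at 0.43, 0.52, 0.92 and 0.29, and Bcl11a and Fyb turned to −0.85 and −0.99. S100a9 was at 1.94 and Odc1 at 1.39. Bcl11a and Tcf4 are known for high levels in plasmacytoid cells, and the 8 plasmacytoid markers held 636 UMIs in GA and 51 in control. Of the 275 Tcf4 UMIs in GA, cell 1 held 112, with 1 Siglech and 185 endothelial-marker UMIs. GA cells 10, 11 and 13, with Siglech, held 56, 54 and 38. Tcf4 was at 676 CPM in GA and 59.0 in control, and at 15.2 and 58.9 without the marked cells, where Siglech had no UMI in GA.

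By list, type 1 markers had a median GA over control ratio of −0.33 in type 1 cells, with 1 of 17 at least 2-fold higher and 1 lower, beside 0.08 for all 5848 genes with at least 20 UMIs, of which 12.2% were at least 2-fold higher and 4.1% lower, together 16.3%. MHC class II genes had a median of −0.29 with none of 14 past 2-fold, and NF-kB genes 0.16. Without the marked cells the class II genes Cd74, H2-Aa, H2-Ab1 and H2-Eb1 turned to 0.20, 0.19, 0.07 and 0.38. H2-DMa, H2-DMb1 and March1 stayed below 0, at −0.44, −0.31 and −1.57. Migratory markers had a median of 0.86 over 17 genes, some of which reached 20 UMIs through GA, where Ccl22 and Il4i1 had 61 and 30 UMIs against none in control, and GA cell 4 held 56.8% of their UMIs in that gate. The medians of migratory markers and NF-kB genes were 1.71 and 0.90 without the marked cells. Lysosome genes had a median of 0.34 that was 0.04 without the marked cells. Ctsl, a cathepsin of macrophages, was at 438 CPM in GA against 12.9 in control, and at 5.06 against 11.8 without those cells.

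In migratory cells 105 of 1135 genes (9.25%) were at least 2-fold apart, 21 higher and 84 lower in GA, and in 76 of the 105 a single cell held over 25% of the UMIs. Without the marked cells 39 of 913 genes were. At the lists' minimum of 20 UMIs, 247 of 4670 genes (5.29%) were at least 2-fold higher and 706 (15.1%) lower, together 20.4%. Of 19 lysosome genes measured (20 listed) 12 were at least 2-fold lower in GA and none higher, with a median of −1.29 against −0.04 for all genes. Their sum differed less, at 4128 CPM in GA and 5127 in control, and the most abundant, Npc2, was at 1003 and 1060. Some of the lower genes were scarce in GA and reached 20 UMIs mostly through control, as Asah1 did with 7 UMIs in GA. Mesenchymal markers had a median of −5.28, with 96.1% of their control UMIs in cell 1, and −0.76 without the marked cells. Macrophage markers had a median of −3.53, with 57.5% of their control UMIs in 1 cell, and their most abundant gene Lyz2 went from −3.54 to −0.81. Most of these markers reached 20 UMIs through control, so their counts are not given. Glycolysis and hypoxia genes went from a median of −0.87 to −0.29, and Eno1 among them from −0.08 to 0.25. The lysosome median was −1.22 without the marked cells, and −0.30 when the cells were thinned to 5000 UMIs each.

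Psap, the precursor of the saposins that help break down sphingolipids, was the clearest of them. It was at 168 CPM in GA (117 to 234) against 547 in control (485 to 615), a log2 ratio of −1.70 (−2.25 to −1.19), and was found in 10 of 11 and 24 of 25 cells. Ctsb, a cathepsin, was at 106 against 259 (−1.29, −2.02 to −0.64). Cd68 and Hexa, both lysosomal, had only 3 and 6 UMIs in GA, with ratios of −2.36 (−4.70 to −0.71) and −2.09 (−3.59 to −0.89). The cathepsins Ctsh and Ctsz went the other way, at 0.38 and 0.43. In type 1 cells Psap was at 2240 CPM in GA and 1828 in control, a ratio of 0.29.

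MHC class II genes had a median of 0.68 in GA migratory cells, with 10 of 11 above 0 and 2 at least 2-fold higher. The gates asked for UMIs of 3 of them, and without those 3 the median was 0.55, with 7 of 8 above 0. The 14 genes summed to 31407 CPM in GA and 19810 in control, and Cd74, the invariant chain, was at 12029 against 7494 (0.68, 0.61 to 0.76). The spread over cells was wider than that, 21 to 734 class II gate UMIs in GA and 20 to 681 in control, and the cells overlapped. The median over all 11 was 0.53 without the marked cells. Ciita, the factor that switches on class II genes, was at 125 against 44.8 with 5 of 11 and 8 of 25 cells positive.

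Several cytokine and chemokine genes were at least 2-fold lower in GA migratory cells, but most of these reached 20 UMIs through control, as Cxcl2 did with 11 UMIs in GA and 531 in control, so their counts are not given. The chemokine median went from −2.97 to −0.50 without the marked cells, and the abundant Ccl5 and Ccl22 were at 0.11 and 0.25. Il1b, which encodes interleukin 1 beta, was at 283 CPM (216 to 365) against 1334 (1236 to 1438), a log2 ratio of −2.24 (−2.65 to −1.85), in 7 of 11 and 22 of 25 cells, with a single cell holding 39.1% of the UMIs. It was at −1.76 without the marked cells. Ccl17 was at 163 (113 to 228) against 1276 (1180 to 1378), a ratio of −2.97 (−3.51 to −2.47), and at −2.54 without them, with 42.5% of the UMIs in 1 cell. Cxcl2, a neutrophil-drawing chemokine, was at −4.29 with 91.7% of its UMIs in 1 cell, and at −0.76 without the marked cells.

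The genes lowest in GA migratory cells with no such dominant cell were Rai14 (−1.95), the Golgi enzyme B4galt5 (−1.76), Zmiz1 (−1.72) and Psap, then the thioredoxin reductase Txnrd1 (−1.43), Ctsb, Mdfic (−1.28) and the microtubule binder Map4 (−1.24). The highest were Gm17276 (2.73, 2.13 to 3.36), the glycogen primer Gyg (1.81), Specc1 (1.57), the NK cell receptor chain Klrd1 (1.54), Avpi1 (1.53), Stxbp6 (1.48), Vti1a (1.29) and Syn3 (1.27). Gyg, for example, had 94 UMIs in 8 of 11 GA cells and 66 UMIs in 18 of 25 control cells. Avpi1 and Vti1a were found in all 11 GA cells. Without the marked cells Vti1a and Syn3 were below 2-fold, at 0.96 and 0.89, and the other named genes stayed past 2-fold in the same direction.

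**Figure D5:**
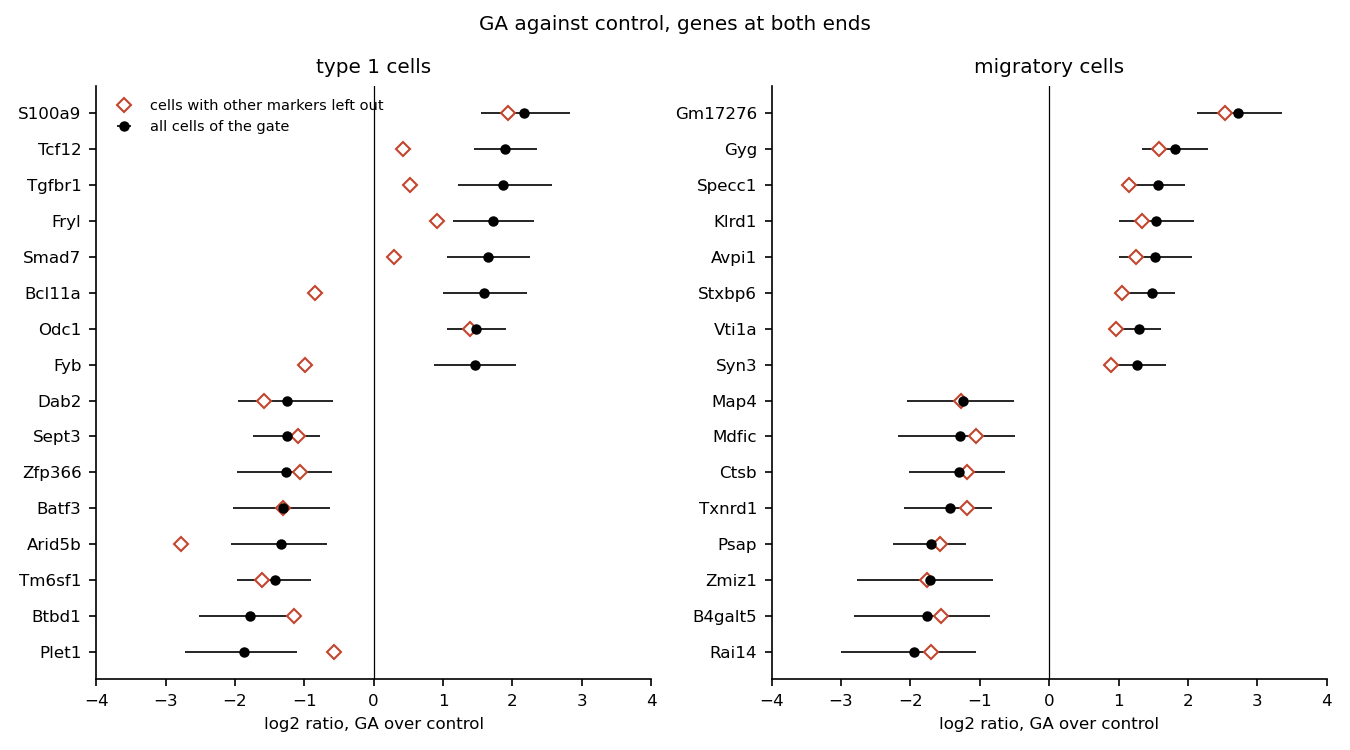
For each gate, points give the log2 ratio of GA over control for the 8 highest and 8 lowest genes named by the rule of size, with 95% counting intervals as bars, and open diamonds give the ratio without the cells marked by other types' transcripts. In type 1 cells Bcl11a and Fyb cross 0 without those cells, while in migratory cells every diamond stays on its side.

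Genes of the treated pathway were scarce in both gates. Of 10 neurotrophin ligands and receptors only Sort1, the sorting receptor sortilin, reached 20 UMIs, at 32.0 and 18.4 CPM in type 1 cells and 48.0 and 21.4 in migratory cells. Migratory markers had a median of 0.41 in migratory cells, with 20 of 23 above 0 and 1 past 2-fold in each direction, and summed to 27279 CPM in GA and 20289 in control. The median was 0.21 without the marked cells. Ccl5 was at 0.11 (−0.03 to 0.24) and Ccl22 at 0.25 (0.09 to 0.41).

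Cells just outside the gates were described without a test. In GA 4 cells and in control 14 cells had Xcr1 and Clec9a UMIs of 2 in sum. Their Wdfy4 was at 774 and 145 CPM, against 248 and 1086 in the 5 and 2 cells with 3 or 4, and 1482 and 1731 in the cells with 5 or more. For the migratory gate, 10 GA and 51 control cells had at least 3 Ccr7 UMIs and no Fscn1, and their Il4i1 was at 212 and 197 CPM against 1138 and 694 inside the gate. Cd209a was at 437 and 315 CPM in those cells, against 4.80 in GA and none in control inside the gate.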

How the data were processed

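Single cells of calvarial defects were measured in 1 library per condition with droplet RNA sequencing. Per the file headers, the authors made the deposited count matrices with Cell Ranger 7.0.1 on mm10. The values are whole UMI counts per gene and barcode, of barcodes called as cells, with no further normalization. No column of the authors' own comparisons was used. Kept cells had 500 to 140000 UMIs, 200 to 9500 genes and at most 15% mitochondrial UMIs.

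UMIs were summed per gate and library and divided by their total. Genes with at least 100 UMIs were compared, list medians used genes with at least 20, and 2-fold was the rule of size. Shares had exact Clopper-Pearson 95% intervals and gene ratios exact conditional binomial ones, which cover counting error only. Share ratios had log-normal intervals. PCR duplicates were collapsed by UMI. A ratio against 0 counts was computed with a floor of 3 counts over the gate. No test was run, since each condition was 1 library. The members, gates and gene lists were chosen with earlier results of these data known. Lists without the gate genes were computed after seeing the data. A few listed genes were not analysed here.

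Named genes were, in each gate, the 8 highest and 8 lowest GA over control ratios among genes with a UMI in at least 10% of cells where higher and no cell holding over 25% of UMIs. For migratory over type 1 cells they were the 12 highest and 12 lowest by the ratio nearer 0, and against each comparison group the 8 highest, beside gate and list genes. Scrublet's automatic threshold marked 0 GA and 39 control barcodes (0.447%) and was not usable, so no doublets were removed and removal of the highest scores, 695 GA and 608 control barcodes, was an alternative. Other alternatives varied the gates, class II minimum, depth, mitochondrial and S100 limits, gene minimum, scaling, thinning to 5000 UMIs and macrophage transcripts. On simulated counts with log2 changes of 1 and 2, 100 of 100 changed genes had the right sign at each size, for type 1 cells over 1651 genes and for migratory cells over 1135 genes. The simulated counts held counting error only and no differences between cells. They therefore say nothing on genes whose UMIs sit largely in 1 cell. Python 3.11.15, NumPy 2.4.6, SciPy 1.17.1, scanpy 1.11.5 and matplotlib 3.10.9 were used. Gene positions came from GENCODE and promoter sequences from RefSeq, GRCm38.p6.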

Additional observations from a re-analysis of the deposited data

Results flagged for a closer look

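For 10 genes GA over control went one way in type 1 cells and the other way in migratory cells, or the gate contrast did so between libraries. The difference was not tested. As the log2 ratio in type 1 cells minus that in migratory cells, it was −6.66 for Ccnd1, 2.68 for Ctsb, 3.29 for Hspa1a, 5.15 for Hspa1b, 4.41 for Il12b, 4.19 for Mt1, 4.28 for Odc1, −2.75 for Specc1, 3.62 for Tcf4 and 8.88 for Thbs1. Without the cells marked by other types' transcripts Hspa1a, Hspa1b, Odc1 and Tcf4 no longer went opposite ways, with differences of 0.74, 2.59, 1.26 and −1.75, and Thbs1 had no UMI left in GA type 1 cells. In 7 of the 10 a single cell held over 50% of a gate's UMIs. Thbs1, a matrix protein gene, had 78.8% of its type 1 UMIs and 94.4% of its migratory UMIs in 1 cell each, and Il12b had 88.7% of its type 1 UMIs in 1 cell. Ctsb, Specc1 and Tcf4 had no such cell. Ctsb was found in 13 of 13 GA and 19 of 20 control type 1 cells and in 10 of 11 and 21 of 25 migratory cells.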

How the results depend on the processing

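All 26 alternative share ratios stayed within the counting interval of the value they replaced. Gene counts past 2-fold stayed within 1.5 times in 22 alternatives and moved in 11. In migratory cells, GA against control, they were 59 of 1026 without the highest Scrublet scores and 39 of 913 without the cells marked by other types' transcripts, an alternative chosen after seeing the data, as was leaving out cells with 3 Siglech UMIs. With a minimum of 20 UMIs they were 953 of 5848 in type 1 cells, 953 of 4670 in migratory cells and 907 of 4462 between the gates. With 200 UMIs they were 29 of 748, 33 of 554 and 93 of 439. With cells thinned to 5000 UMIs they were 4 of 220, 6 of 275 and 24 of 167, where fewer genes reach the minimum.

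Of the list medians 687 stayed within 1.5 times, 73 moved further and 7 that were at least 1 from 0 on the log2 scale turned sign. Medians nearer 0 that changed sign are counted among the first 2 groups. For migratory over type 1 cells in control, mesenchymal markers turned to −0.32 without the highest Scrublet scores and to −0.29 without the marked cells, and macrophage markers to 1.44 with at most 5 C1q UMIs, 1.63 without the marked cells and 0.24 with 50 UMIs a gene. In GA, chemokine receptors turned to 1.87 without the marked cells, the ratio of the gate gene Ccr7 itself, and to 3.15 when thinned, and this list holds Xcr1 too. The causes were not tested. No paired analysis was possible because each condition was 1 library and no result came from a test. With 13, 20, 11 and 25 cells, the gates limit the precision of every value, and differences between mice cannot be told apart from the treatment.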
